A study of Mus musculus with 8 samples.

Results

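Lyn, Fgr, Syk, Btk and Fes are 5 non-receptor tyrosine kinases that act early in signalling from immune receptors of blood cells. They were taken by name, by matching the Entrez gene identifiers of the deposited count tables to mouse symbols, and all 5 were among the 12830 genes listed. Lyn and Fgr belong to the SRC family, Btk to the TEC family and Fes to the FES family, while Syk has a family of its own with Zap70. The cells were AML410, a mouse acute myeloid leukaemia on a C57BL/6 background with a monosomal karyotype, which lacks p53 in every group and carries a hairpin against PU.1 (shPU.1) linked to green fluorescent protein (GFP). PU.1, encoded by Spi1, is the ETS-family transcription factor that drives myeloid and B cell gene programmes. GFP+ bone marrow cells of leukaemic mice were sorted after 2 days of doxycycline (Dox; GFPhigh-mid), after 4 days (GFPmid), after 6 days (GFPlow), or without Dox (GFPhigh), giving 2 RNA-seq libraries in each of 4 groups. Dox switches the hairpin off, and endogenous PU.1 then returns. Sort gate and day move together, so they cannot be told apart, and all groups come from 1 leukaemia. The labels call the 2 libraries of a group technical replicates while the series text speaks of duplicate mice, so p-values measure only the spread between these libraries, which may be technical.

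In myeloid cells SRC family kinases phosphorylate the tyrosines of ITAM motifs on receptor-associated chains such as Tyrobp (DAP12) and Fcer1g. Syk docks on the phosphorylated ITAM and passes the signal to adaptors and phospholipase C gamma, a step in which TEC family kinases such as Btk take part. Lyn also phosphorylates ITIM motifs of inhibitory receptors, which recruit the phosphatases Ptpn6 (SHP-1) and Inpp5d (SHIP-1). Fgr and Lyn are SRC family kinases well known in granulocytes and macrophages, Btk is best known from B cells and is also present in myeloid cells, and Fes acts downstream of cytokine and Fc receptors in myeloid cells. The Btk promoter, and in human cells the FES promoter, are described in the literature as bound by PU.1.

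Promoter sequences are shown because all of these genes are read here while one transcription factor returns. RefSeq (GRCm38.p6) promoters of 300 bases, 250 before and 50 after the start, were matched for 4 of the 5 genes, and Syk had 2 starts there. The letters GAGGAA, the core of the site PU.1 prefers, were searched on both strands, where the reverse strand reads TTCCTC, and they occurred in 28.3% of 32851 promoters and in 31.3% of the 27025 genes those promoters belong to. Each of the 4 matched genes had 1 promoter with 1 match, printed here 5′ to 3′ on the gene's strand in a window of 30 bases with the match in capitals.
Fgr, chr4:132974114-132974143 (+), 32 bases after the start: gtccgagacggcTTCCTCctccctccccag
Syk, the downstream start, chr13:52596861-52596890 (+), 9 bases before the start: tgctgacactttGAGGAAaagccacttccc
Btk, chrX:134583114-134583143 (-), 10 bases after the start: ctcagactgtccTTCCTCtctggactgtaa
Fes, chr7:80387908-80387937 (-), 22 bases after the start: gaaaccacggagGAGGAAgcaggaatcagg
The longer form GAGGAAGT, which contains GAGGAA and occurred in 3.2% of promoters, was in none of these windows, and the upstream start of Syk had no GAGGAA. The shorter ETS core GGAA, which GAGGAA contains, occurred in 96.0% of promoters. The 250 bases before the start are given for the gene with the widest change reported here, Fgr, and for the one with the narrowest, Btk, with GGAA or its reverse TTCC in capitals.
Fgr, chr4:132973845-132974094 (+): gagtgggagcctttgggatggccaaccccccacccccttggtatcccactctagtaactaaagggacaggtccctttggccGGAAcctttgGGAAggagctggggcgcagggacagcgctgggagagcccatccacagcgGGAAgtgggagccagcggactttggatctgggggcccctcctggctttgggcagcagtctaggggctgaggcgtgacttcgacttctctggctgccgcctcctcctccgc
Btk, chrX:134583141-134583390 (-): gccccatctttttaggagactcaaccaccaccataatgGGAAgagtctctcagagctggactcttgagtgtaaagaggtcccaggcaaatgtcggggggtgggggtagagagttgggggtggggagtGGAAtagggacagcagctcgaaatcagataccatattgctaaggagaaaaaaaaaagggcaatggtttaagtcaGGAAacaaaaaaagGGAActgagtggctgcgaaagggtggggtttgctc
Fgr had 3 such cores in these bases and Btk had 4. A match describes the letters in the window and says nothing on binding, which was not measured.

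Library totals ran between 9262047 and 11213292 counts. Levels are given as CPM, counts brought to a common library size with totals scaled by trimmed mean of M values (TMM), and RPKM divides CPM by the deposited gene length in kilobases, so levels of different genes are compared in RPKM. Tests are edgeR's quasi-likelihood test with Benjamini-Hochberg adjustment over 12330 genes, and a gene is said to have risen or fallen at an adjusted p under 0.05. Spi1 itself averaged 10.6 ± 3.23 CPM in untreated cells, 15.2 ± 0.606 CPM at day 2, 98.4 ± 6.11 CPM at day 4 and 222.8 ± 8.35 CPM at day 6 (SD, n = 2 each). In the second untreated library it was above the first, 12.9 against 8.34 CPM, and the day 2 difference was not called (log2 fold change 0.52, SE 0.171, adjusted p = 0.103). In the first day 2 library 1 gene without a symbol took 13.3% of the counts, against at most 0.149% in the other libraries. Scaling by total counts instead of TMM moved the median log2 fold change of all genes at day 6 against untreated cells to -0.472, against -0.038 with TMM, and the split of calls to 2078 higher and 6647 lower, against 3942 higher and 3897 lower with TMM. At day 4 that split was 1816 higher and 4519 lower, against 3217 and 2707 with TMM, and at day 2 it was 170 and 658, against 516 and 240.

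All 5 kinases were higher at day 6 with TMM scaling, by amounts between 1.35-fold for Btk and 39.6-fold for Fgr, and all but Btk were also higher with total-count scaling. At day 2, 3 of the 5 (Fes, Btk and Syk) were called higher than in untreated cells, where 4.18% of all genes tested were called higher and 1.95% lower. At day 4 all 5 were called higher, beside 26.1% of all genes called higher and 48.0% called in either direction, and at day 6 all 5 again, beside 32.0% and 63.6%. Under total-count scaling the rise of Btk was lost at all 3 times and that of Syk and Fes at day 2, while Fgr, Fes, Lyn and Syk stayed above untreated cells at days 4 and 6. By that scaling the gene with 13.3% of the counts lowers all other genes of the first day 2 library. Its part in the day 2 losses was not tested. Between day 2 and day 4, 4 of 5 rose, beside 21.7% of all genes, and between day 4 and day 6 again 4 of 5, beside 15.9% of all genes called higher and 29.9% in either direction. Under total-count scaling Fgr alone was called in that last step. In the test for any difference among the 4 groups all 5 were called, beside 65.1% of all genes tested. Btk was the one not called in both steps.

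**Figure D1:**
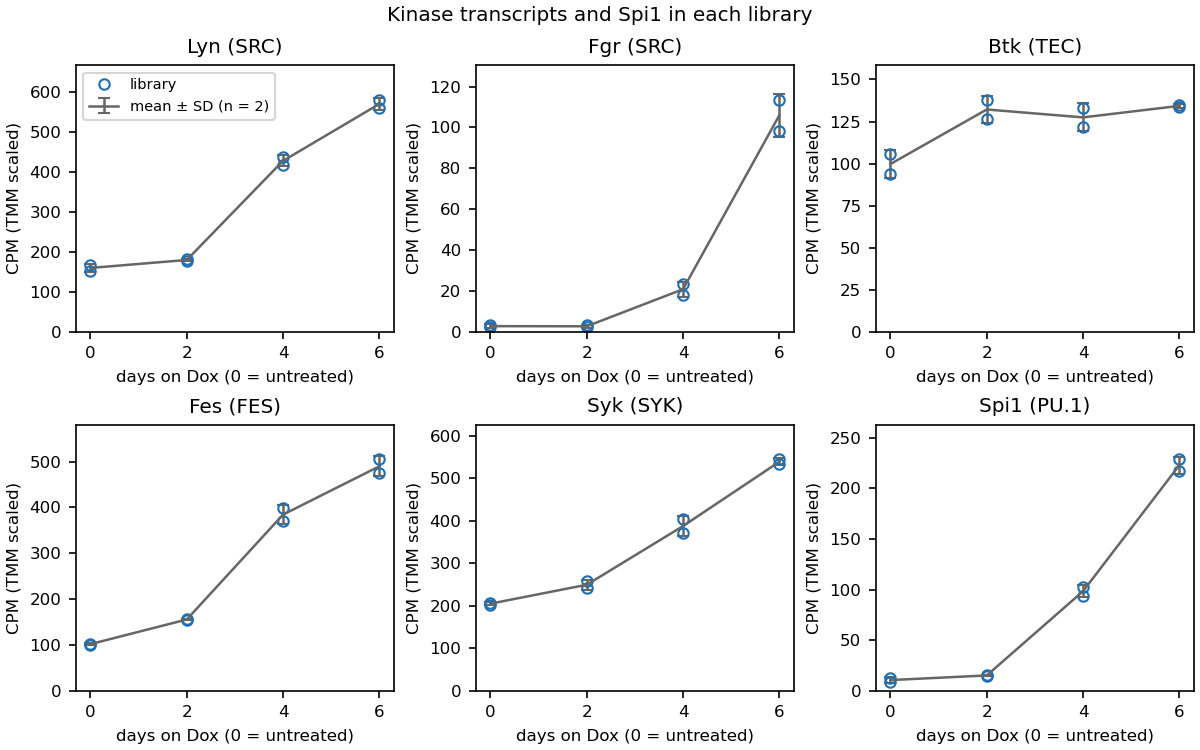
TMM-scaled CPM (y axis, from 0) of each kinase and of Spi1 against days on Dox (x axis, 0 is untreated). Circles are the 2 libraries of a group and the line joins group means with SD. Fgr stays at 2.06 to 3.24 CPM until day 2 and reaches 98.4 to 113 CPM at day 6, while Btk stays between 93.8 and 138 CPM throughout.

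Lyn (Entrez 17096, chromosome 4:3678068-3791612, plus strand, mm10), which both starts ITAM signalling and feeds ITIM receptors, was the most abundant of the 5 per length in untreated cells. It had 165.9 and 152 CPM in the untreated libraries, 181 and 177 CPM at day 2, 417 and 436 CPM at day 4, and 559 and 579 CPM at day 6. With TMM scaling the day 2 libraries lay just above the untreated ones without overlap, and the day 4 and day 6 libraries lay apart from all earlier ones. Total-count scaling gave a day 2 log2 fold change of -0.0101, also not called. The log2 fold change over untreated cells was 0.17 at day 2 (SE 0.0738, adjusted p = 0.212), 1.42 at day 4 (SE 0.0738, adjusted p = 4.37e-08) and 1.84 at day 6 (SE 0.0744, adjusted p = 3.25e-09). Most of the rise came between day 2 and day 4, with a log2 difference of 1.25 (SE 0.0736, adjusted p = 2.13e-07), against 0.41 between day 4 and day 6 (SE 0.0716, adjusted p = 0.00148). That later step was 0.23 and not called under total-count scaling (adjusted p = 0.188). The annotation places Gm26857, a long noncoding RNA, and Gm11805, a pseudogene, on the strand opposite Lyn, and the sources used here do not say whether counting used strand.

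Fgr (Entrez 14191, chromosome 4:132974095-133001893, plus strand), a SRC family kinase of granulocytes and monocytes, was the least abundant of the 5 at every time and had the widest range. Fgr was counted 38 and 25 times without Dox, 27 and 23 times after 2 days, 199 and 240 times after 4 days, and 874 and 1049 times after 6 days. These counts make 3.24 and 2.10 CPM without Dox, 3.11 and 2.06 CPM on day 2, 18.1 and 23.4 CPM on day 4, and 98.4 and 113 CPM on day 6. Untreated and day 2 libraries overlapped, and the day 4 and day 6 pairs each stood clear of every earlier library. At day 2 the log2 fold change was -0.07 (SE 0.325, adjusted p = 0.923), with a sign that turned when 1 untreated or 1 day 2 library was left out, so that a day 2 change was not detectable at these counts. Fgr rose by a log2 fold change of 2.95 at day 4 (SE 0.222, adjusted p = 8.14e-07) and 5.31 at day 6 (SE 0.199, adjusted p = 1.93e-09). The day 6 change ranked 100 from the top of 12330 genes. Both later steps were called, with 3.02 between day 2 and day 4 (SE 0.234, adjusted p = 1.75e-06) and 2.35 between day 4 and day 6 (SE 0.151, adjusted p = 6.96e-06).

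Syk (Entrez 20963, chromosome 13:52582610-52648792, plus strand), the kinase that docks on phosphorylated ITAMs, was higher in each later group. It had 208 and 203 CPM in untreated cells, 258 and 241 CPM at day 2, 371 and 405 CPM at day 4, and 533 and 545 CPM at day 6. No group overlapped with another. The log2 fold change over untreated cells was 0.28 at day 2 (SE 0.0743, adjusted p = 0.048), 0.92 at day 4 (SE 0.0742, adjusted p = 1.45e-06) and 1.39 at day 6 (SE 0.0747, adjusted p = 2.7e-08). The day 2 call was lost when any library other than the first untreated one was left out, with log2 fold changes between 0.24 and 0.33 and adjusted p between 0.0569 and 0.202, and in the fit of those 2 groups alone (adjusted p = 0.157). The step between day 4 and day 6 was 0.48 (SE 0.0731, adjusted p = 0.000743), and 0.29 under total-count scaling, where it was not called (adjusted p = 0.091).

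Btk (Entrez 12229, chromosome X:134542334-134583628, minus strand), the TEC family kinase downstream of Syk, had the smallest change of the 5 at days 4 and 6. It had 93.8 and 106 CPM in untreated cells, 138 and 126 CPM at day 2, 133 and 122 CPM at day 4, and 135 and 133 CPM at day 6. Every Dox library lay above both untreated ones, and the 3 Dox groups overlapped. The log2 fold change over untreated cells was 0.41 at day 2 (SE 0.0855, adjusted p = 0.0198), 0.35 at day 4 (SE 0.0853, adjusted p = 0.0052) and 0.43 at day 6 (SE 0.0857, adjusted p = 0.00103), whereas total-count scaling gave 0.22, 0.10 and -0.0053 with none called. Neither later step was called, with a log2 difference of -0.05 between day 2 and day 4 (adjusted p = 0.678) and 0.08 between day 4 and day 6 (adjusted p = 0.546). At day 6, 72.3% of genes tested had a lower log2 fold change than Btk, against 90.2% for Syk, 93.1% for Lyn, 94.8% for Fes and 99.2% for Fgr. The day 2 call was lost without the first day 2 library (0.35, adjusted p = 0.0913), and also without the first (adjusted p = 0.0529) or the second day 6 library (adjusted p = 0.0522). The annotation places the pseudogene Gm15154 on the strand opposite Btk.

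Fes (Entrez 14159, chromosome 7:80377758-80387954, minus strand), a kinase of the myeloid lineage that follows cytokine and Fc receptors, had the largest day 2 change of the 5. It had 101 and 103 CPM in untreated cells, 157 and 154 CPM at day 2, 370.2 and 398 CPM at day 4, and 474 and 505 CPM at day 6. The 4 groups did not overlap. The log2 fold change over untreated cells was 0.61 at day 2 (SE 0.0748, adjusted p = 0.00122), 1.91 at day 4 (SE 0.075, adjusted p = 6.31e-09) and 2.26 at day 6 (SE 0.0757, adjusted p = 1.05e-09). At day 2 total-count scaling gave 0.43, just past the threshold (adjusted p = 0.0502). The step between day 2 and day 4 was 1.30 (SE 0.0735, adjusted p = 1.56e-07) and the one between day 4 and day 6 was 0.35 (SE 0.0712, adjusted p = 0.00388). The later step was not called under total-count scaling (0.17, adjusted p = 0.354), without the first day 4 library (0.30, adjusted p = 0.0531) or without the second day 6 library (0.31, adjusted p = 0.0598).

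**Figure D2:**
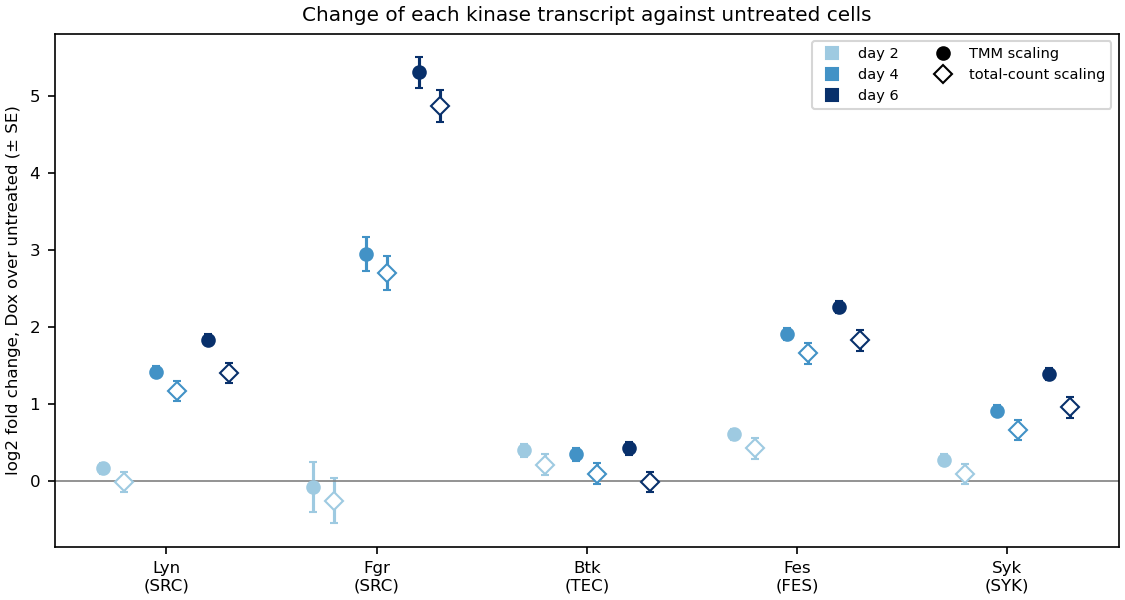
Log2 fold change of each kinase over untreated cells (y axis, bars are SE) at days 2, 4 and 6 (light to dark). Filled circles use TMM scaling and open diamonds total counts. Total-count scaling puts each value lower, and at day 6 Btk is at -0.0053 by that scaling against 0.43 by TMM.

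Per length, the order of the 5 genes turned over. In untreated cells Lyn led at 46.0 ± 2.80 RPKM, followed by Btk at 39.3 ± 3.27, Syk at 38.9 ± 0.648 and Fes at 36.9 ± 0.682, with Fgr at 0.795 ± 0.240 RPKM (SD, n = 2 each). Btk did not differ from Syk or Fes beyond its spread there, since its libraries (37.0 and 41.6 RPKM) spanned both Syk libraries (39.4 and 38.5 RPKM) and one Fes library (37.4 RPKM, with the other at 36.4). Syk and Fes themselves did not overlap. At day 2 the order was Fes at 56.3 ± 0.756, Btk at 52.1 ± 3.16, Lyn at 51.8 ± 0.811, Syk at 47.4 ± 2.24 and Fgr at 0.772 ± 0.221 RPKM, and Btk and Lyn overlapped. At day 4 it was Fes at 139 ± 7.22, Lyn at 124 ± 3.91, Syk at 73.6 ± 4.46, Btk at 50.3 ± 3.25 and Fgr at 6.18 ± 1.13 RPKM, with no overlap between neighbours. At day 6 the order was the same, with Fes at 177 ± 7.92, Lyn at 164.7 ± 4.09, Syk at 102 ± 1.60, Btk at 53.0 ± 0.462 and Fgr at 31.6 ± 3.15 RPKM, again with no overlap.

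Ratios within a library do not depend on how libraries are scaled. Of the summed RPKM of the 5, Btk made up 10.3% and 9.74% in the day 6 libraries, against 22.9% and 25.7% in the untreated ones. Syk made up 19.6% and 19.1% at day 6, against 24.3% and 23.7% in untreated cells. Both shares were lower at day 6 without overlap, and the share of Fes was higher, 33.2% and 33.9% at day 6 against 22.5% and 23.1% in untreated cells. The share of Lyn was 31.3% and 31.01% at day 6, against 29.7% and 27.2% in untreated cells, slightly higher without overlap. For each RPKM of Syk there were 0.527 and 0.509 RPKM of Btk at day 6, against 0.94 and 1.08 in untreated cells. For each RPKM of Lyn there were 0.181 and 0.202 RPKM of Fgr at day 6, against 0.0201 and 0.0142 in untreated cells. Beside Tec and Bmx, Btk made up 57.7% and 56.2% of the summed RPKM of these 3 TEC family genes at day 6, against 67.2% and 71.0% in untreated cells, with no overlap.

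**Figure D3:**
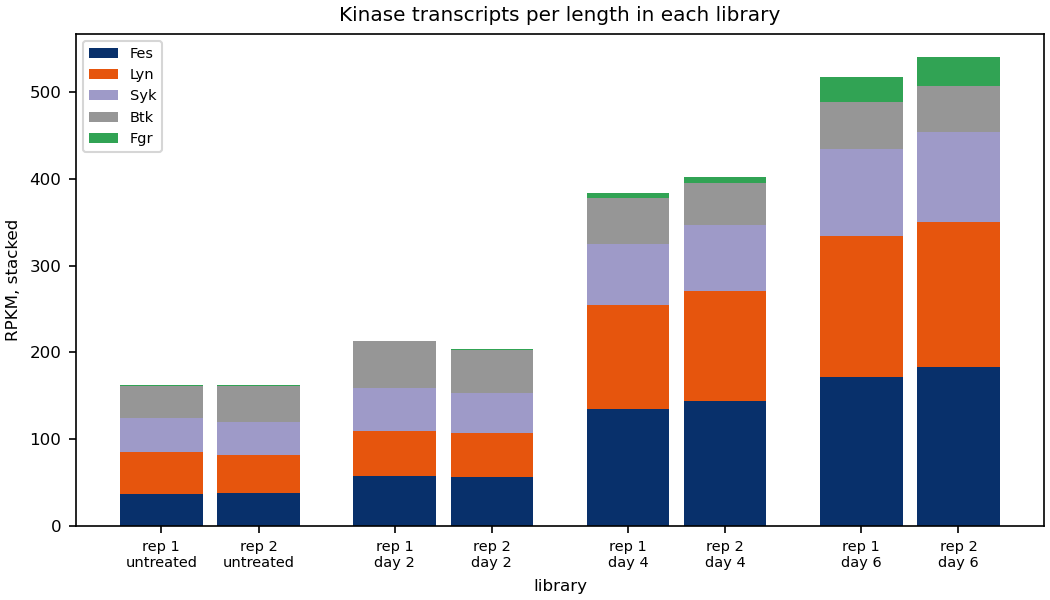
RPKM of the 5 kinases, stacked, in each of the 8 libraries (x axis, grouped by day on Dox). The Btk band is between 37.0 and 54.4 RPKM high in every bar, with a share of 10.3% and 9.74% of the day 6 bars, against 22.9% and 25.7% of the untreated bars, and the Fgr band can be seen from day 4 on.

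Markers of cell types moved with the groups, where 32.0% of all genes tested were called higher and 31.6% lower at day 6. All 10 neutrophil markers listed (Ly6g, S100a8, Ltf and others) were called higher at day 6, with summed levels of 58970 and 72090 CPM, against 3990 and 2707 CPM in untreated cells. All 11 monocyte and macrophage markers were called higher as well, with 4866 and 4623 CPM at day 6, against 614.6 and 524.9 CPM in untreated cells. Of 10 leukaemia and progenitor markers 5 were called lower and 1 (Ptprc) higher at day 6, with summed levels of 6348 and 6209 CPM, against 12690 and 11240 CPM in untreated cells. Every one of these 10 had counts in all 8 libraries. B cell markers, which matter for Btk, summed to 122.8 and 62.6 CPM in untreated cells, 214 and 30.6 CPM at day 2, 35.4 and 39.7 CPM at day 4, and 76.4 and 94.5 CPM at day 6 over the 16 of 18 in the tables. In the second day 2 library, where Btk was at 126 CPM, Blk, Rag1 and Rag2 were at 0 and the other listed B cell markers were counted. In every other library all 16 were counted. The part of B cells in the level of Btk was not tested. The other lists summed to 216.1 CPM or less in any library. In these bulk libraries fewer cells of a type and less RNA per cell cannot be told apart, and the part of maturing myeloid cells in the rise of the 5 kinases was not tested.

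Other kinases of the same families were called in both directions, as were all genes. Of 11 such genes considered, 8 were in the tables, while Src, Frk and Txk were not analysed here. At day 6, 2 were called higher and 4 lower with a median log2 fold change of -0.50, against -0.038 over all genes, of which 32.0% were called higher and 31.6% lower. At day 4, 2 were called higher and 5 lower with a median of -0.785, against -0.016, beside 26.1% and 22.0% of all genes. DESeq2 gave 2 higher and 3 lower there, with Fyn (adjusted p = 0.073) and Yes1 (adjusted p = 0.128) not called. The day 4 calls of Lck and Zap70 rested on 1 and 2 counts over both day 4 libraries. Each of these calls was lost without the first untreated library. At day 2 none was called, against 6.13% of all genes in either direction (median -0.27). By edgeR's unadjusted p 3 of the 8 were under 0.05 at day 2, and DESeq2 called none of them, while total-count scaling called 2 lower. Tec rose by 1.01 (SE 0.103, adjusted p = 5.72e-06) and Bmx by 1.42 (SE 0.127, adjusted p = 1.88e-06) at day 6, both TEC family kinases like Btk. Fyn, a SRC family kinase found in many tissues, fell by 1.02 on the log2 scale (SE 0.239, adjusted p = 0.00307). Yes1, likewise widely expressed, was at -0.37 (adjusted p = 0.0237), a call lost with DESeq2 (adjusted p = 0.146), without the second untreated library (-0.26, adjusted p = 0.136) or without the second day 6 library (-0.28, adjusted p = 0.175).

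The lymphoid members of these families were barely counted. Zap70, the Syk relative of T cells, had 3 counts over both day 6 libraries, against 45 over both untreated ones, a ratio of 0.0872 with an exact 95% counting interval of 0.0173 to 0.272. Its call at day 6 was lost without the first untreated library (adjusted p = 0.0932) or the first day 6 library (adjusted p = 0.0682). Lck of T cells and Blk of B cells were not called at day 6, and neither had more than 42 counts in any library. Fer, the Fes relative, had 77 and 88 counts at day 6, against 138 and 149 in untreated cells, at a log2 fold change of -0.41 and the edge of the threshold (adjusted p = 0.0479). That call was lost with DESeq2 (adjusted p = 0.221), with RLE scaling, with no filter, and without either untreated, either day 4 or either day 6 library (between -0.48 and -0.35). Lck and Zap70 also stand in the list of T and NK cell markers and Blk in that of B cells.

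**Figure D4:**
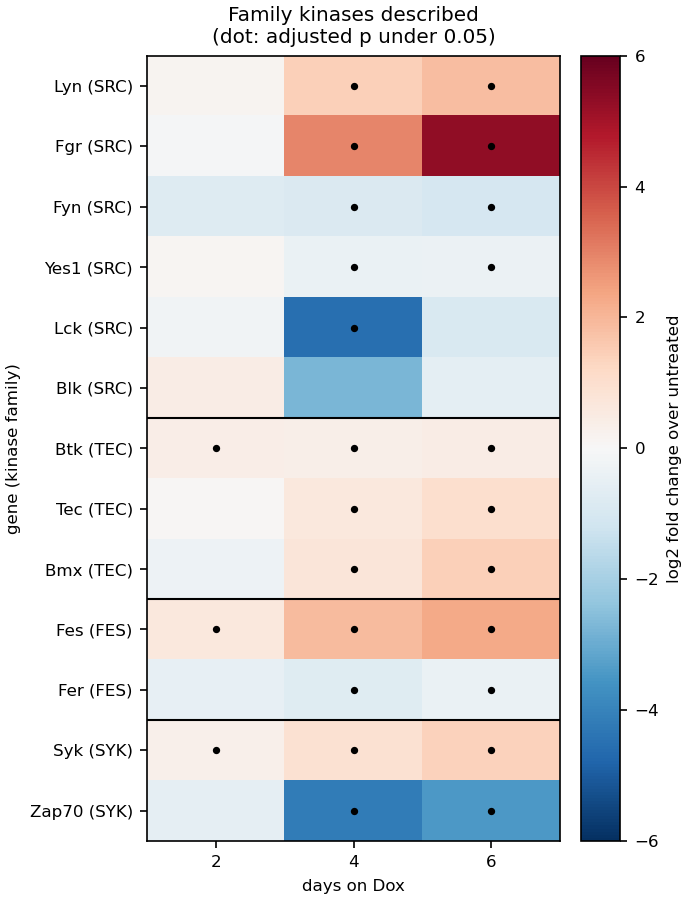
Log2 fold change over untreated cells (colour, red higher and blue lower) of 13 SRC, TEC, FES and SYK family kinases (rows, split by family) at days 2, 4 and 6 (columns), with a dot where the adjusted p is under 0.05. Fgr is the deepest red at day 6. At that day Fyn, Yes1, Fer and Zap70 are blue with a dot, and the dots of Yes1, Fer and Zap70 are lost under some alternatives. At day 4 Lck is blue with a dot as well. The day 4 dots of Fyn, Yes1, Lck and Zap70 are lost under some alternatives, and Lck and Zap70 are at fitted values from few counts.

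Receptors and chains that feed these kinases rose as well. All 13 ITAM chains and partner receptors in the tables (of 14 listed) were called higher at days 4 and 6, with median log2 fold changes of 2.24 and 3.32, beside 26.1% and 32.0% of all genes. The share of all genes called higher at day 2 was 4.18%. At day 2, 4 were called higher with a median of 0.53, and 1 without the second untreated library (median 0.36) or the second day 2 library (median 0.37). Tyrobp, the DAP12 chain through which Syk is recruited, had 336.2 ± 27.5 CPM at day 2, against 171.7 ± 18.5 CPM in untreated cells (SD, n = 2 each), a log2 fold change of 0.97 (SE 0.0971, adjusted p = 0.000349). Itgam, the integrin alpha chain CD11b, had 1677 ± 154 CPM at day 6, against 29.8 ± 1.52 CPM in untreated cells (log2 fold change 5.81, SE 0.142, adjusted p = 1.92e-10). Fcgr1, the high-affinity IgG receptor, rose by 5.16 at day 6 (SE 0.215, adjusted p = 4.08e-09). Clec4n (Dectin-2), a fungal lectin receptor, had 109 counts at day 6 and none in untreated cells, at least 47.5-fold higher taking a group floor of 3 counts, and the median of the list is the same with Clec4n at that bound. At day 2 Itgam was 0.62 higher (adjusted p = 0.0202), a call lost without the second untreated library (0.57, adjusted p = 0.109) or the second day 2 library (0.51, adjusted p = 0.138).

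Receptors with ITIMs, which Lyn phosphorylates, and the inhibitory adaptors and lipid phosphatases listed with them also rose. Phosphorylation was not measured. Of 15 genes, 14 were called higher and 1 lower at day 6 (median 1.78), beside 32.0% and 31.6% of all genes. Total-count scaling gave 11 higher and 1 lower there (median 1.34). At day 4, 12 were higher and none lower (median 1.70), beside 26.1% and 22.0% of all genes. At day 2, 7 were higher and none lower (median 0.44), beside 4.18% and 1.95% of all genes. Clec12a, an inhibitory C-type lectin, led at day 2 with 84.6 ± 6.00 CPM, against 23.5 ± 4.68 CPM in untreated cells (log2 fold change 1.85, SE 0.123, adjusted p = 2.5e-05). Clec4a2, another inhibitory lectin, rose by 1.44 at day 2 (SE 0.184, adjusted p = 0.00147) and had 417.7 ± 9.39 CPM at day 6, against 3.38 ± 0.800 CPM in untreated cells. The sialic acid receptor Siglece was at 6.85 (SE 0.29, adjusted p = 4.67e-09) and the paired receptor Pirb at 5.98 (SE 0.148, adjusted p = 2.1e-10) at day 6. Inppl1 (SHIP-2), a lipid phosphatase, was the gene that fell, by 0.36 on the log2 scale (SE 0.0823, adjusted p = 0.00254).

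Adaptors and effectors downstream of the kinases moved by smaller amounts. Of 24 genes, 19 were called higher and 1 lower at day 6 (median 0.84), beside 32.0% and 31.6% of all genes. Total-count scaling gave 13 higher and 2 lower there (median 0.40), beside 2078 and 6647 of 12330 genes. At day 4, 17 were higher and 2 lower (median 0.59), beside 26.1% and 22.0% of all genes. At day 2, 1 was higher, close to the share of all genes called higher there (4.18%). Fyb, an adaptor of integrin signalling, had 44.1 ± 1.13 CPM at day 6, against 0.550 ± 0.0657 CPM in untreated cells (log2 fold change 6.30, SE 0.228, adjusted p = 1.61e-09). Pstpip1, a cytoskeletal adaptor, rose by 2.04 (SE 0.0895, adjusted p = 5.89e-09) and Sh3bp2, an adaptor that binds Syk, by 1.87 (SE 0.114, adjusted p = 7.92e-08). Of the phospholipase C gamma pair, Plcg1 was at -0.63 (SE 0.134, adjusted p = 0.00168) and Plcg2, the form used with Btk, at 1.23. Skap2, an adaptor of SRC family kinases, was the gene called at day 2, at 0.47 (SE 0.0737, adjusted p = 0.00403), against 0.30 and not called under total-count scaling.

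Regulators that set SRC and SYK family activity rose in the main. Of 16 genes, 12 were called higher and 1 lower at day 6 (median 0.94), beside 32.0% and 31.6% of all genes. Total-count scaling gave 8 higher and 4 lower there (median 0.50), beside 2078 and 6647 of 12330 genes. At day 4, 10 were higher and 2 lower (median 0.40), beside 26.1% and 22.0% of all genes. At day 2, 2 were higher and 1 lower, beside 4.18% and 1.95% of all genes. Ptprc (CD45), the phosphatase that removes the inhibitory phosphate of SRC family kinases, had 681.2 ± 1.66 CPM at day 6, against 27.3 ± 1.01 CPM in untreated cells (log2 fold change 4.64, SE 0.134, adjusted p = 4.71e-10). Ptprj, a receptor phosphatase with a like role, rose by 2.03 (SE 0.0791, adjusted p = 2.5e-09), and Pag1, a membrane adaptor that brings in the inhibitory kinase Csk, by 1.52 (SE 0.0862, adjusted p = 4.39e-08). Ubash3a, a suppressor of T cell signalling, fell by 0.96 on the log2 scale (SE 0.0961, adjusted p = 4.7e-06). At day 2 Ptpn6 was at 0.42 (adjusted p = 0.00855), a call lost under total-count scaling (0.25, adjusted p = 0.262). Ptprc was at 0.72 (adjusted p = 0.0106), lost without the second untreated library (0.69, adjusted p = 0.072) or the second day 2 library (0.49, adjusted p = 0.0719). Ptpn12 was at -0.30 at day 2 (adjusted p = 0.0419), a call lost with DESeq2 (adjusted p = 0.0536), in the fit of those 2 groups alone (adjusted p = 0.135), and when any library but the first untreated or the first day 2 one was left out (between -0.30 and -0.23).

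**Figure D5:**
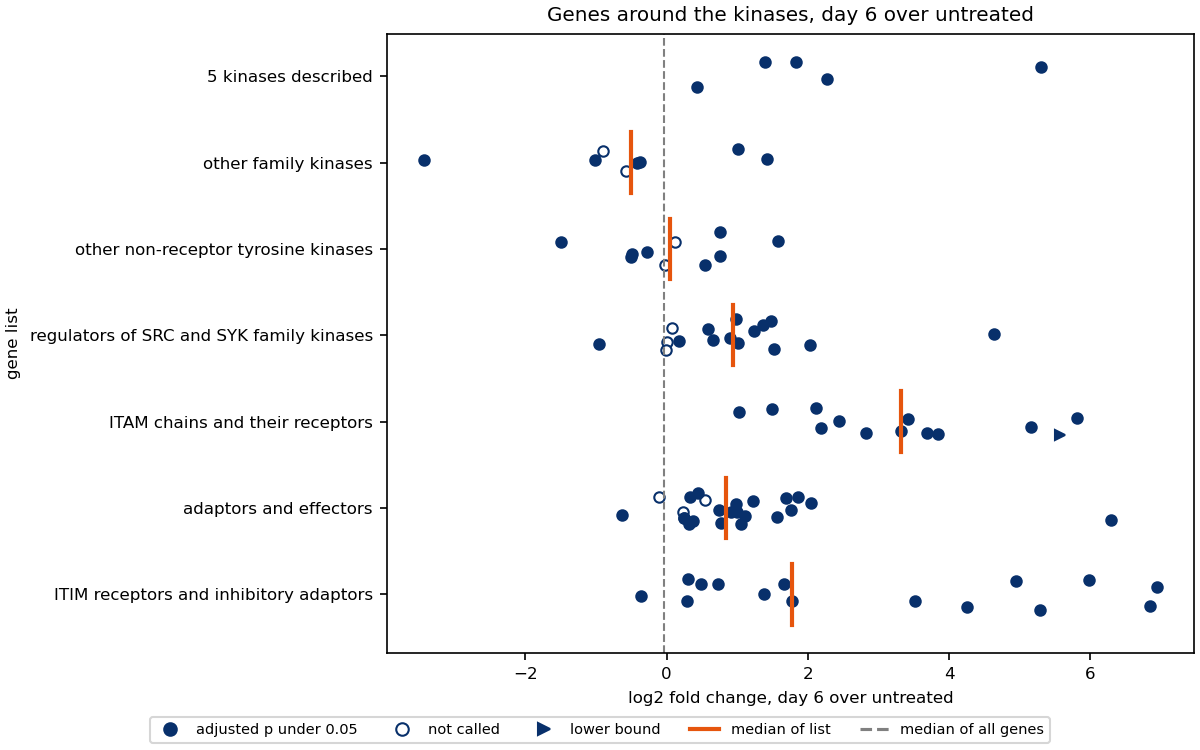
Log2 fold change at day 6 over untreated cells (x axis) of each gene (points, filled where the adjusted p is under 0.05) in the 5 kinases and in each list around them (rows), with the list's median as an orange bar and the median of all genes, -0.038, as a dashed line. The ITAM list has its median at 3.32 and the other family kinases at -0.50, and the arrowhead is the lower bound of Clec4n.

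For each kinase the 3 genes (2 of them given for Fes) with the smallest root mean square distance in centred log2 CPM over the 8 libraries were taken as most alike. For Fgr these were Ifitm6 (distance 0.317), Fpr2, a formyl peptide receptor (0.325), and Ms4a6b (0.34). For Lyn they were Lbh (0.0424), Wipf1, which binds the actin regulator WASP (0.048), and Npc2, a lysosomal cholesterol carrier (0.0537), and for Syk they were Cap1, an actin-binding protein (0.0456), Inpp5j, a lipid phosphatase (0.0463), and Fam117b (0.0533). Fes was nearest to Macir (0.0783) and Myo1f, a myosin of leukocytes (0.0937). Btk was nearest to Fam118b (0.0461), Trir (0.0653) and Med30, a Mediator subunit (0.0725), which were 0.32 to 0.34 higher at day 6. Total-count scaling moved the median of all genes at day 6 to -0.472. By that scaling these 3 genes and Btk were below 0 and none was called. Fam118b was not called among the 4 groups by edgeR (adjusted p = 0.0547) or at day 6 by DESeq2 (adjusted p = 0.085). The distance grows with the range of a gene and was widest for Fgr, although the genes nearest to Fgr correlated with it at r = 0.988 to 0.991 over the 8 libraries and those nearest to Btk at 0.931 to 0.98. By Pearson correlation over the same libraries 1 of the 3 stayed for Btk and for Fes and none for Fgr, Lyn and Syk, so these names depend on the measure of likeness.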

How the data were processed

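RNA-seq of sorted leukaemia cells was deposited as 1 table per library with Entrez identifier, gene length and raw read count, per the file headers. Per the submitters' processing notes the authors used CASAVA 1.8.2, featureCounts, edgeR 3.8.2 and limma 3.22.0 with build mm10. The sources used here do not give the order and settings of these steps or whether counting used strand. The tables hold 12830 genes, each with a third-highest CPM of at least 0.501, so genes silent in most libraries are absent. Symbols were matched for 12555 identifiers, and the unmatched ones hold 2.24% of counts.

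Counts were fitted with edgeR 4.0.16 in R 4.3.3 (TMM scaling, filterByExpr, 1 mean per group over all 8 libraries, glmQLFit and glmQLFTest, Benjamini-Hochberg adjustment). The filter removed 500 genes, leaving 12330. Degrees of freedom were 4 residual and 7.08 prior, and the common biological coefficient of variation came to 8.34%. SE is the log2 fold change divided by the square root of F. The fit was tested on simulated data. Alternatives were RLE and total-count scaling, no filter, a replicate block, DESeq2 1.42.0, fits of only the 2 groups compared, and leaving out each library. Counting intervals and floors cover counting error only. No 2 libraries of a group agreed within sampling noise.

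The 5 kinases and all gene lists were chosen with earlier results of these data known. Named genes are the 5, Spi1, the other family kinases, for each list and direction up to 3 called genes with the largest change at day 6 and up to 2 at day 2, and the 3 genes most alike each kinase. Plcg2 was named after its values were seen. Some genes are not reported here and were left out of the lists.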

Additional observations from a re-analysis of the deposited data

Results flagged for a closer look

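The effect of Dox differed between times for 4 of the 5 kinases, by the test of the difference itself. Of all genes tested, 37.6% were called in either direction between day 2 and day 4, and 29.9% between day 4 and day 6. Between day 4 and day 2 the log2 effects differed by 1.3 for Fes, 3.02 for Fgr, 1.25 for Lyn and 0.64 for Syk, and each difference had both day 4 libraries above both day 2 libraries. Between day 6 and day 4 they differed by 0.35 for Fes, 2.35 for Fgr, 0.41 for Lyn and 0.48 for Syk. For each, both day 6 libraries again lay above both day 4 libraries. With total-count scaling only the Fgr difference of this later step was called. That of Fes was also not called without the first day 4 or the second day 6 library. Groups of 2 libraries allow no test for a single outlying library.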

How the results depend on the processing

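Results on the 5 kinases and on the count of list genes called were recomputed under every alternative, and 445 of these values kept their direction and side of the threshold, while 23 lost the call, 7 changed sign and 5 counts moved by over 1.5 times. Total-count scaling gave Btk 0.2196 at day 2, 0.1027 at day 4, -0.0053 at day 6 and -0.1079 between days 6 and 4, with F = 1.258 among the 4 groups. It gave Fes 0.4292 at day 2 and 0.1662 between days 6 and 4, Lyn -0.0101 and 0.2316, and Syk 0.0993 and 0.2923, and 29 list genes called between days 6 and 4, against 52. Fits of only the 2 groups compared gave Btk 0.3948 and Syk 0.2731 at day 2, neither called, with 9 list genes called, against 16. Leaving out 1 library gave Btk 0.3258 to 0.4926 at day 2 and -0.1169 to 0.0062 between days 4 and 2, Fes 0.298 to 0.4085 between days 6 and 4, Fgr -0.3629 to 0.2733 at day 2, Syk 0.2365 to 0.3339 at day 2, 10 to 22 list genes at day 2 and 33 to 56 between days 6 and 4. Among named genes total-count scaling turned Fam118b to -0.0945, Trir to -0.1026 and Med30 to -0.1114 at day 6, and Blk ran between -2.246 and 0.1519 at day 6 with 1 library left out.

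The replicate numbers are not said to mark a shared mouse or batch, and same-numbered libraries deviated together with correlations between -0.13 and 0.209. With the replicate number as a block, Syk at day 2 was 0.2831 and not called (adjusted p = 0.0732), no other call of the 5 kinases changed, the calls of Fer at day 6 (adjusted p = 0.0556) and Ptpn12 at day 2 (adjusted p = 0.063) were lost among named genes, and calls over all genes at day 2 were 416 higher and 196 lower, against 516 and 240. Calls over all genes at day 2 were 175 higher and 57 lower in the fit of only those 2 groups, 738 and 587 without the first untreated library, 241 and 84 without the second, 305 and 92 without the second day 2 library, and 291 and 111 or 293 and 112 without 1 day 6 library. Between days 6 and 4 they were 1961 and 1728 with all libraries, 1006 and 725 without the first day 4 library, and 1254 and 878 or 1016 and 710 without 1 day 6 library. Under total-count scaling the all-gene median at day 6 was -0.472, against -0.038 with TMM, and which scaling suits these cells was not tested. The cause of each change was not tested either. Depth limits Fgr at 23 to 38 counts before day 4, and the lymphoid kinases throughout.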

Other observations

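Tyrosine kinases of other families were called in both directions, as were all genes, of which 32.0% were higher and 31.6% lower at day 6. Of 11 listed, 10 were in the tables, and at day 6, 4 were called higher and 4 lower (median log2 fold change 0.05), while total-count scaling gave 3 higher and 6 lower (median -0.38). Jak2, which serves many myeloid cytokine receptors, had 244.8 ± 6.22 CPM at day 6, against 81.8 ± 1.21 CPM in untreated cells (SD, n = 2 each), a log2 fold change of 1.58 (SE 0.0883, adjusted p = 3.84e-08 by edgeR). Tyk2 and the adhesion kinase Ptk2b (PYK2) were each at 0.76, with SE of 0.0668 and 0.0661. Ptk2 (FAK), the adhesion kinase related to Ptk2b, went the other way, with 29.4 ± 2.88 CPM at day 6, against 83.2 ± 2.27 CPM in untreated cells (log2 fold change -1.50, SE 0.108, adjusted p = 2.98e-07). It was already at -0.45 at day 2 (adjusted p = 0.0246), a call lost without the second untreated library (-0.42, adjusted p = 0.101) or the first day 2 library (-0.37, adjusted p = 0.126). Jak3, of the common gamma chain cytokine receptors, was at -0.48 (SE 0.0944, adjusted p = 0.000895) and Abl2 at -0.50 (SE 0.116, adjusted p = 0.00294) at day 6.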
